A study of Mus musculus with 8 samples.

Results

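*Arg2* and *Mgll* encode enzymes of metabolism that were read by 1 array probe each, Z00025583-1 for *Arg2* and Z00000661-1 for *Mgll*. These 2 genes were taken from the study's list of genes enriched in retinoic acid-induced Zscan4+ cells, which names 128 of the 42006 probes on the array. Both genes were thus chosen by their values on the RA arrays, from which the list was made, and those values are given as a description. The list gives folds between the RA samples alone. Whether the arrays from regular medium entered the error variance behind it was not given in the sources used here.

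The cells were mouse embryonic stem cells (ESCs) of strain 129/Sv in which a *Zscan4c* promoter drives the green fluorescent protein Emerald. All groups carry this reporter, and sorting by Emerald selects cells by promoter activity. Whether the line derives from 1 clone was not given in the sources used here. RM-Zscan4+ and RM-Zscan4- cells, with and without Emerald fluorescence, came from regular medium (RM, 3 biological replicates each). RA-Zscan4+ and RA-Zscan4- cells came from the same medium with 1.5 μM all-trans retinoic acid (RA, 1 sample each), and sorting took place on culturing day 5. Each sample was labeled with Cy3 and hybridized with a Cy5-labeled reference, pooled RNA of mouse cell lines, on 8 arrays in all. Levels are given as the log2 ratio of the processed Cy3 signal over the processed Cy5 signal, so that 0 means as much signal as the reference.

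Arginase 2, the product of *Arg2*, is the mitochondrial arginase. It splits arginine into urea and ornithine, and ornithine feeds the synthesis of polyamines, proline and glutamate. *Mgll* encodes monoacylglycerol lipase, a serine hydrolase that releases a fatty acid and glycerol from monoacylglycerols in the last step of triglyceride breakdown. It is also the main enzyme that degrades the endocannabinoid 2-arachidonoylglycerol. The Zscan4+ state of ESC cultures is transient and is known for transcripts that are otherwise typical of the 2-cell embryo.

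The values of both genes rest on hybridization to probes of 60 bases, and the last 30 bases of each are shown because they define what was measured. In the *Mgll* probe the capitals mark the hexamer AATAAA, the letters of the usual polyadenylation signal, which 6.75% of all probes on the array hold and the *Arg2* probe does not.
Arg2 probe: gcattcgaagggacagatatgaaatggctg
Mgll probe: tacagctcaccgtAATAAAaaccacgtgct

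No other probe on the array shared a run of 16 bases with either probe on either strand. The probes hold 45.0% (*Arg2*) and 40.0% (*Mgll*) G and C, against a median of 43.3% over all probes. Where in each transcript a probe lies was not analysed here. Neither probe carried an outlier flag, a saturated pixel flag or a surrogate value on any of the 8 arrays.

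*Zscan4*, the gene behind the sort, was higher in the Emerald-positive sample of every pair. Its log2 ratio was 5.08, 5.59 and 5.03 in RM-Zscan4+ and 0.10, 0.21 and 0.98 in RM-Zscan4-. In RA it was 6.13 with Emerald and 1.88 without. Of 10 genes of the 2-cell-like state, all with a named probe, 9 were called higher in RM-Zscan4+ (adjusted p below 0.15 and 3-fold or more), against 54 of the 128 named probes and 0.193% of all probes tested. *Tdpoz5*, at 1.80-fold, was below the fold threshold. The named probes come from the study's list, so this count is not independent evidence. None of the listed pluripotency or fibroblast genes had a named probe, so these cell identities were not checked. Over local background, before normalization, Cy3 reached 114 to 241 intensity units at the median probe of an array. The 95th percentile of negative controls lay between 88.6 and 125 in the processed Cy3 signal. Processed signals are on another scale than signals over local background, so these values cannot be set against each other.

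*Arg2* was strongly enriched in Zscan4+ cells of regular medium. Its log2 ratio was 4.30, 5.22 and 4.33 in RM-Zscan4+ and 0.31, -0.05 and 0.56 in RM-Zscan4-. All 3 RM-Zscan4+ arrays lay far above all 3 RM-Zscan4- arrays, with 3.74 on the log2 scale between the nearest values. The group levels were 4.62 ± 0.52 (SD, n = 3) and 0.27 ± 0.31 (SD, n = 3). The log2 change was 4.35 (standard error 0.29), a 20.4-fold rise with an adjusted p = 0.00603 from limma. With the replicate number as a block in the fit, the standard error was 0.32 and the adjusted p = 0.0444 from limma. In sorted bulk samples, fewer cells that express a gene and less RNA per cell cannot be told apart.

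*Mgll* was also enriched in RM-Zscan4+, by less and with more spread relative to its change. Its log2 ratio was 2.39, 2.99 and 1.61 in RM-Zscan4+ and 0.09, -0.10 and 0.13 in RM-Zscan4-. The RM-Zscan4- arrays lay close together around the reference, whereas the RM-Zscan4+ arrays were spread over more than 1 log2 unit and did not overlap them. On the RM-Zscan4- arrays the signals of both dyes were close to the negative controls, so this closeness does not show a tightly held level. The group levels were 2.33 ± 0.69 (SD, n = 3) and 0.04 ± 0.12 (SD, n = 3). The log2 change was 2.29 (standard error 0.33), a 4.88-fold rise with an adjusted p = 0.118 from limma. With the replicate block the standard error was 0.32 and the adjusted p = 0.1005 from limma.

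**Figure D1:**
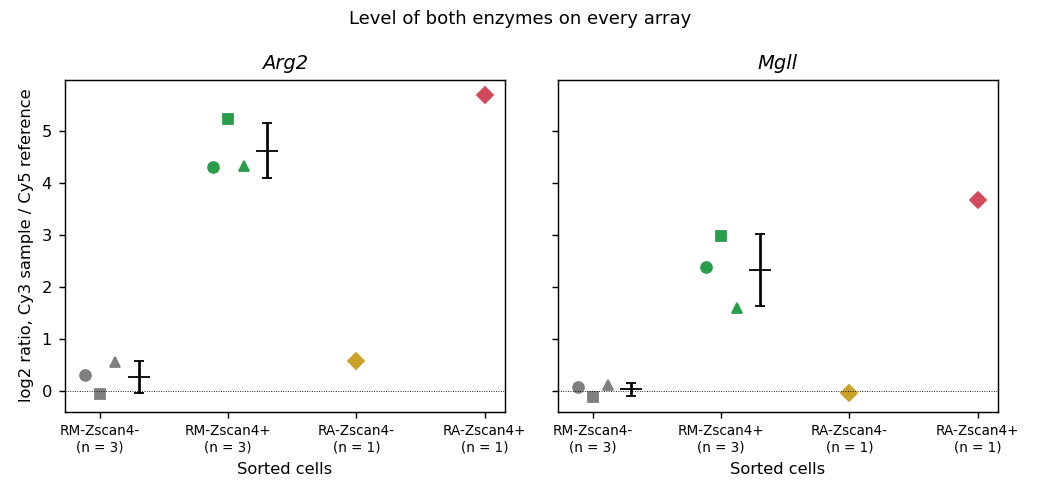
Log2 ratio of the sorted sample (Cy3) to the common reference (Cy5) for *Arg2* (left) and *Mgll* (right) in the 4 groups. Circles, squares and triangles are replicates 1, 2 and 3 of RM, diamonds are the single RA arrays, and black bars are the mean ± SD of 3 arrays. For both genes every Zscan4+ array lies above every Zscan4- array, and the RA-Zscan4+ array is the highest.

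Both genes thus passed the threshold used for RM, an adjusted p below 0.15, which is the rate of false discoveries that the study allowed, together with a rise of 3-fold or more. Of the 42006 probes tested, 81 passed it (0.193%). By size of the RM change *Arg2* stood at position 14 and *Mgll* at position 70 among all probes tested. Among the 128 named probes they stood at positions 8 and 44, and the median named probe had a log2 change of 1.43. The non-overlap of the RM groups alone says less, since 4.97% of the probes had all RM-Zscan4+ arrays above all RM-Zscan4- arrays. The median change over all probes was -0.01 in RM and -0.02 in RA.

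The call of *Arg2* held without any 1 of the 6 RM arrays, with adjusted p between 0.00830 and 0.0596 from limma. That of *Mgll* was lost without RM-Zscan4+ replicate 1 (adjusted p = 0.406 from limma) and without RM-Zscan4- replicate 1, 2 or 3 (0.444, 0.464 and 0.247), while its log2 change stayed between 1.96 and 2.65. By the t-statistics of the study's methods, with a more conservative error variance, neither gene passed, with an adjusted p of 0.390 for *Arg2* and 1.00 for *Mgll*. No other probe on the array passed by these t-statistics either, where the lowest adjusted p was 0.293. They took over the error variance of the methods but not the handling of values with large error. The study itself reports genes enriched in RM-Zscan4+, so this version did not reproduce its analysis and is no verdict on it.

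The size of the difference varied between replicates, each a pair of RM arrays sharing a number, and in the same order for both genes. *Arg2* was higher in RM-Zscan4+ by 3.99, 5.28 and 3.78 on the log2 scale in replicates 1, 2 and 3, and *Mgll* by 2.30, 3.09 and 1.48. Replicate 2 had the widest difference and replicate 3 the narrowest. *Zscan4* had this order too, with 4.97, 5.37 and 4.05. By the time at which the software extracted signals from the scans (extraction time), replicate 2 stood by itself and replicates 1 and 3 shared another. Within these, the log2 change of *Arg2* was 3.88 over the pairs of replicates 1 and 3 and 5.28 in replicate 2, and that of *Mgll* was 1.89 and 3.09. The part of the extraction time in this difference was not tested.

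The change of *Arg2* exceeded that of *Mgll* in all 4 pairs. In RM the gap between the changes was 2.06 ± 0.32 (SD, n = 3) on the log2 scale, and in RA it was 1.41. The size of the gap to *Zscan4* depended on the reference dye for both genes, and its direction only for *Arg2* in RA. In the ratio, the change of *Arg2* was lower than that of *Zscan4* by 0.10 to 0.98 in the RM pairs and higher by 0.86 in the RA pair. However, the Cy5 signal of the *Zscan4* probe was itself higher on the Zscan4+ array of each pair, 2.89-, 3.19- and 2.14-fold in RM and 6.51-fold in RA, which lowers its ratio. In processed Cy3 alone *Zscan4* was 90.8-, 132- and 35.4-fold higher in the RM pairs and 124-fold in the RA pair, against 19.3-, 32.7-, 14.4- and 49.6-fold for *Arg2*. On that scale *Arg2* changed by less than *Zscan4* in all 4 pairs, and the direction in RA was turned. The study's list also gives *Zscan4* a larger rise than *Arg2* in RA, unlike the ratio used here. *Mgll* changed by less than *Zscan4* on both scales, by between 2.29 and 2.68 (log2) for RM replicates and by 0.55 with RA in the ratio. In processed Cy3 its difference from *Zscan4* was -4.60, -4.23 and -3.83 in RM and -3.32 in RA.

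In cells treated with RA, the log2 ratio of *Arg2* was 5.69 with Emerald and 0.58 without it. *Mgll* had 3.68 and -0.02. The RA-Zscan4+ array gave the highest level of the 8 arrays for both genes. The difference was 5.12 for *Arg2*, or 34.7-fold, with an error of 1.12 on the log2 scale by the error model of the scanner software. For *Mgll* it was 3.71, or 13.1-fold, with an error of 0.96. These errors cover the measurement of single spots and not the spread between cultures, which a single RA sample per group cannot show. By a rise of 3-fold or more in the RA pair, 204 of 41958 probes stood out (0.486%), and *Arg2* stood at position 3 and *Mgll* at position 43. As both genes were taken from the list of this contrast, these positions are a description, and no test was made. They also hold only for the ratio used here. The study's list places *Zscan4*, *Tcstv3*, LOC665446, *Tcstv1* and EG226955 above *Arg2*. In this ratio the RA rises of those genes were 11.3- to 24.1-fold, below that of *Arg2*.

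Set beside the RM pairs, the RA difference of *Arg2* lay inside their range and that of *Mgll* lay above it. For *Arg2* the RA difference exceeded the RM mean by 0.77 and was 0.16 below that of RM replicate 2. For *Mgll* it exceeded the RM mean by 1.42 and the highest RM pair by 0.62. From median pixel signals the RA difference of *Arg2* was below its RM change, by -0.14 on the log2 scale, and the excess of *Mgll* was 0.43. Of the 121 named probes with an RA value, 109 had a larger change in RA than in RM, and the median excess was 0.99, a direction that the choice of the list from the RA arrays favors. Whether the change of either gene differs between RA and RM was not tested, because they were chosen for the RA change.

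**Figure D2:**
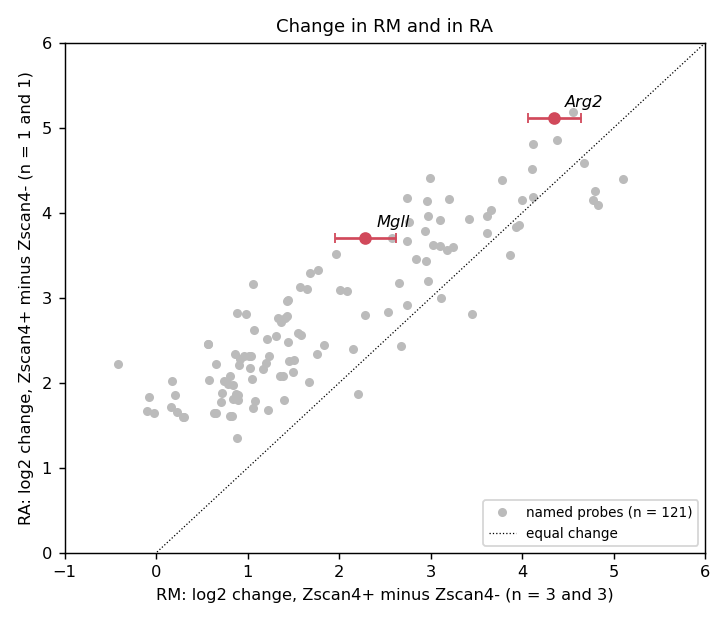
Log2 change from Zscan4- to Zscan4+ cells in RM (x axis, 3 against 3 arrays) and in RA (y axis, 1 against 1 array) for the 121 named probes with an RA value. Red points are *Arg2* and *Mgll* with the standard error of the RM change from limma, gray points are the other named probes, and the dotted line marks equal change. *Arg2* lies in the upper right corner and *Mgll* in the middle of the RM range, both above the line, whereas from median pixels, not plotted, the RA difference of *Arg2* minus its RM change was -0.14.

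The levels of each gene can be ordered over the 4 groups. For *Arg2* RA-Zscan4+ came first, 1.07 above the RM-Zscan4+ mean and 0.47 above the highest RM-Zscan4+ array. RA-Zscan4- and RM-Zscan4- were neighbours at the low end, and RA-Zscan4- lay 0.02 above the highest RM-Zscan4- array. For *Mgll* RA-Zscan4+ lay 1.36 above the RM-Zscan4+ mean and 0.70 above its highest array. The *Mgll* level of RA-Zscan4- fell within the RM-Zscan4- range, so these neighbours did not differ beyond the spread of the RM arrays in the processed ratio. *Zscan4* was 1.44 higher in RA-Zscan4- than the RM-Zscan4- mean and *Arg2* 0.31 higher, whereas *Mgll* was 0.06 lower. The direction for *Mgll* turned by Cy3 alone (0.14 higher) and from median pixels (0.46 higher), and from median pixels *Arg2* was 0.97 higher. The RA arrays had an extraction time shared with no RM array, so RA and extraction time cannot be told apart in these differences.

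The dyes show where the ratios come from. The processed Cy3 signal of *Arg2* was 3606, 4120 and 3106 intensity units in RM-Zscan4+ and 187, 126 and 216 in RM-Zscan4-. In RA it was 8854 with Emerald and 178 without. The Emerald-negative signals were low, between 1.01 and 2.00 times the 95th percentile of the negative controls of their array. The Emerald-positive signals were between 26.2 and 88.5 times that percentile.

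The processed Cy3 signal of *Mgll* was 650.4, 1208 and 442 intensity units in RM-Zscan4+ and 174, 171 and 177 in RM-Zscan4-. In RA it was 2126 and 171. The Zscan4- signals were between 1.37 and 1.87 times the control percentile and nearly equal on all 4 arrays. The Zscan4+ signals ranged from 3.73 to 21.2 times that percentile, so the weakest *Mgll* array, RM-Zscan4+ replicate 3, was the only Zscan4+ value of either gene below 5 times the controls.

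**Figure D3:**
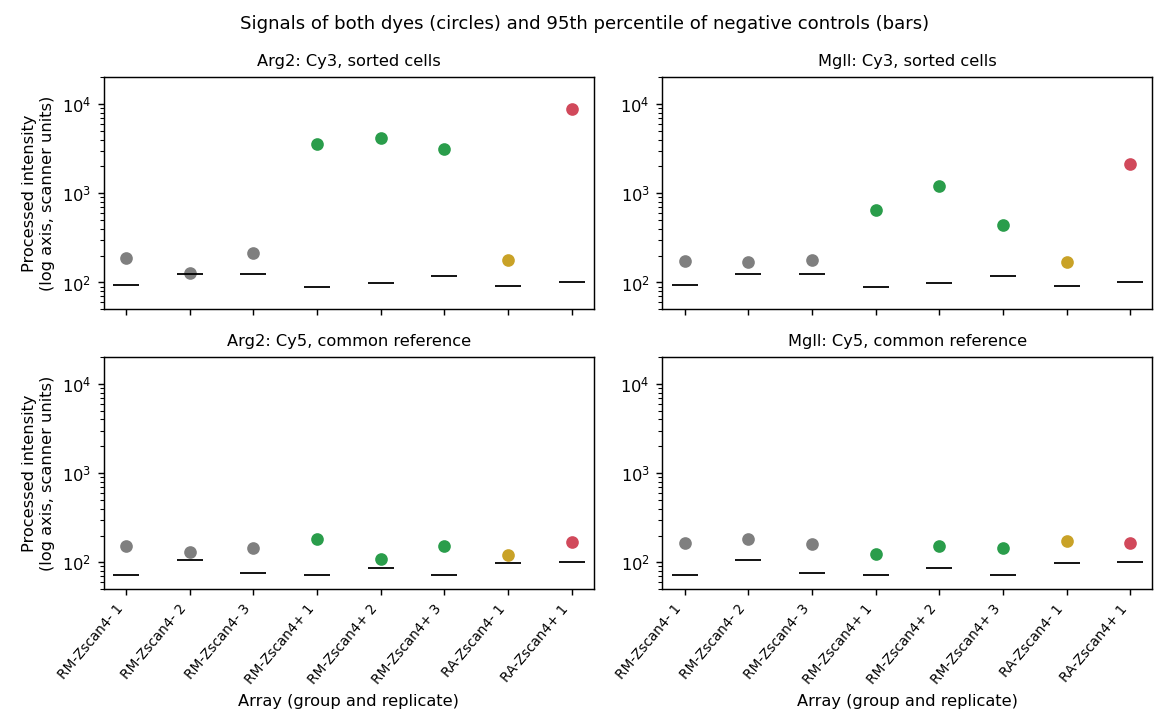
Processed intensity on a log axis for *Arg2* (left) and *Mgll* (right), in Cy3 (upper panels, sorted cells) and Cy5 (lower panels, common reference), on each of the 8 arrays. Circles are the gene's probe and horizontal bars the 95th percentile of the negative controls of that dye on that array. The Cy3 signal separates Zscan4+ from Zscan4- arrays, while the Cy5 signal stays between 110.2 and 183 for both genes.

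In the reference channel both genes were dim. The processed Cy5 signal of *Arg2* was between 1.21 and 2.53 times the 95th percentile of the negative controls of its array. For *Mgll* it was between 1.65 and 2.26 times that percentile. The processed Cy5 signal of *Arg2* ran from 110.2 to 183 intensity units over the 8 arrays, a 1.66-fold range, and that of *Mgll* from 125 to 183, a 1.47-fold range. Before dye normalization, the Cy5 signal of *Arg2* above local background was higher on the Zscan4+ array of each pair, 1.70-, 1.43- and 1.51-fold in RM and 2.79-fold in RA. For *Mgll* the same fold was 0.923, 1.08 and 1.07 in RM and 1.55 in RA. In Cy3 above local background, without any normalization, *Arg2* was 15.8-, 16.8- and 10.6-fold higher in the RM pairs and 25.5-fold higher in the RA pair, and *Mgll* 3.47-, 4.59- and 2.14-fold and 7.76-fold. The Zscan4+ sample thus had the stronger Cy3 signal in all 4 pairs for both genes before and after normalization.

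The size of the folds differed between ways of processing the signals, whereas Zscan4+ was above Zscan4- in each. From median pixel signals the RA difference was 8.79-fold for *Arg2* and 4.57-fold for *Mgll*, and the RM change of *Arg2* was 9.68-fold. After normexp background correction and loess the RM change was 12.8-fold for *Arg2* and 3.20-fold for *Mgll*. Both genes still passed the RM threshold in these settings.

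Other genes of the same pathways could hardly be followed. Of 25 genes of arginine and polyamine metabolism, 2 had a named probe, *Arg2* and *Cpb2*. Of 23 genes of monoacylglycerol, lipid droplet and endocannabinoid metabolism, 2 had one, *Mgll* and *Slc27a2*. In each list 1 gene passed the RM threshold, *Arg2* and *Mgll* themselves. As the names come from the list of RA-enriched genes, these counts do not describe the pathways.

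The study's list held 5 further metabolic enzymes and transporters, and 0 of them passed the RM threshold, against 54 of all 128 named probes. *Glrx2*, a mitochondrial glutaredoxin, came nearest at 1.51 (SE 0.19, adjusted p = 0.0825 in limma) on the log2 scale in RM, which is under 3-fold, and 2.27 in RA. *Cpb2*, a carboxypeptidase that removes arginine and lysine from the ends of proteins, was at 1.06 (SE 0.17, adjusted p = 0.178 in limma) in RM and 3.16 in RA. *Hdc*, which makes histamine from histidine, was at 0.29 in RM and 1.60 in RA. *Adcy5*, an adenylyl cyclase, was at 0.23 and 1.66, and *Slc27a2*, a fatty acid transporter and acyl-CoA synthetase, at -0.42 and 2.23. The *Slc27a2* level was low in RA-Zscan4- alone, with a log2 ratio of 0.65 against 2.87 in RA-Zscan4+ and group means of 2.84 in RM-Zscan4+ and 3.26 in RM-Zscan4-. The RM adjusted p of *Hdc*, *Adcy5* and *Slc27a2* lay between 0.833 and 0.980 in limma, and of the 5 genes *Glrx2* and *Cpb2* had an unadjusted p under 0.05.

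**Figure D4:**
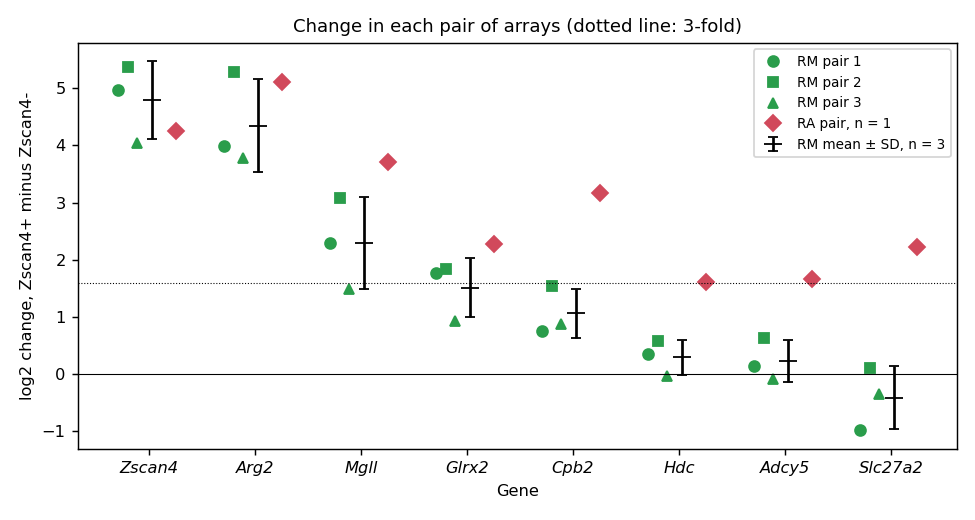
Log2 change from Zscan4- to Zscan4+ cells for *Zscan4*, *Arg2*, *Mgll* and 5 other metabolic genes of the study's list. Green symbols are the RM pairs of replicates 1, 2 and 3, black bars their mean ± SD (n = 3), and red diamonds the RA pair (n = 1), with a solid line at 0 and a dotted line at 3-fold. Of the 7 metabolic genes, *Arg2* and *Mgll* have the highest RM means.

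The named probes whose profile over the 8 arrays was most like that of each gene were found by the root mean square distance of the log2 ratios, each profile centred on its own mean. Nearest to *Arg2* were LOC432715 at a distance of 0.19, *BC061212* at 0.29, *Tcstv1* at 0.29, *1700001F09Rik* at 0.34 and *Gm12794* at 0.35. *Gm12794* belongs to the PRAME-like genes and *Tcstv1* to the 2-cell-stage variable group. LOC432715 was the nearest of all probes with a value on every array, named or not. In RM it changed by 4.38 (SE 0.36) with an adjusted p = 0.0133 in limma, and in RA by 4.86.

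Nearest to *Mgll* were *1700066J24Rik* at a distance of 0.20, EG666099 at 0.25, LOC625360 at 0.26, *Myo3a*, an unconventional myosin, at 0.27 and EG666169 at 0.31. *1700066J24Rik* was again the nearest of all probes, with 2.57 (SE 0.22) in RM at an adjusted p = 0.0160 in limma and 3.70 in RA. *Arg2* and *Mgll* lay 0.99 apart, which placed *Mgll* 41st among the named probes nearest to *Arg2*, and *Arg2* 100th among those nearest to *Mgll*. The profiles were centred but not scaled, so this distance also holds the difference in size of change. It does not show that the 2 genes followed a different order over the arrays. The 5 neighbours of *Arg2* and the 5 of *Mgll* were different probes. The distances describe these arrays, since likeness to a gene over the RM arrays also fixes much of the RM change of its neighbours.

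**Figure D5:**
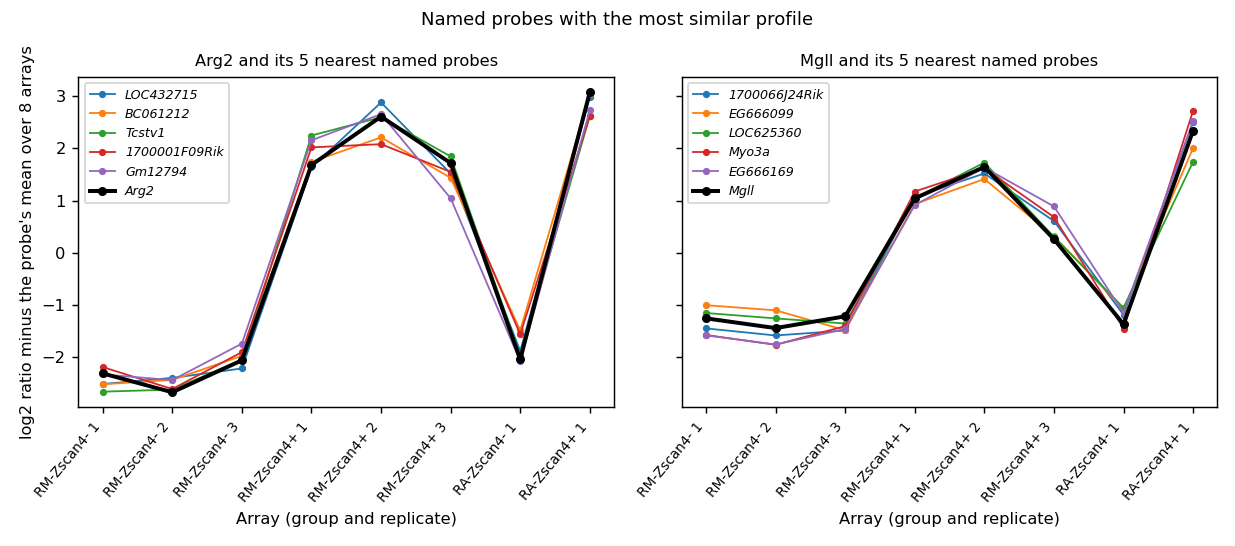
Log2 ratio minus the probe's own mean over the 8 arrays, for *Arg2* (left) and *Mgll* (right) in black and the 5 named probes nearest to each in color. Lines join the values of a probe across arrays, which have no order within a group, and serve only to show which values belong together. The spread between Zscan4- and Zscan4+ arrays is larger around *Arg2* than around *Mgll*, and RA-Zscan4+ is the highest array for both.

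Because the cells were treated with RA, whose receptors bind DNA at pairs of half-sites, the promoter of *Mgll* is shown as RefSeq gives it (GRCm38.p6, chr6:88724162-88724411, plus strand). It comprises the 250 bases before the first of the gene's starts in that table. Both strands were searched for the half-site letters AGGTCA and GGTTCA, and the capitals mark the match.
Mgll promoter: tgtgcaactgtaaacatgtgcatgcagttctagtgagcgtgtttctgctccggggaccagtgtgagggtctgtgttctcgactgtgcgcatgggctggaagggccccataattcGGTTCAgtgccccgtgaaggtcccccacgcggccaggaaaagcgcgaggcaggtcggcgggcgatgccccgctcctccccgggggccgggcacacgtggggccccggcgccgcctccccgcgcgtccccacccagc

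This window held GGTTCA 1 time and AGGTCA 0 times, where 8.8% and 14% of 32851 promoter windows of the same length hold these letters. A single half-site match is a description of the sequence and not a binding site. The window was rich in CpG dinucleotides, with 23 against a median of 6 over all windows. A second *Mgll* window of the same table held neither motif.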

How the data were processed

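Sorted ESCs were measured on 8 two-color Agilent arrays of 44290 spots, each with the sample in Cy3 and a common reference in Cy5, with no dye swap. The authors deposited intensity values of Agilent Feature Extraction (A.7.5.1 per the file headers), with local background subtracted and dyes normalized within the array by linear factors and LOWESS, beside unprocessed pixel signals and log10 ratios with their error. They also deposited a series matrix in log10, and 99.53% of its values lay within 0.001 of the log10 ratio of Cy3 to Cy5 with the mean log10 Cy5 of that probe added. Columns of sample values that were not used numbered 0.

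Log2 ratios of processed Cy3 to Cy5 were taken from these. Spots that were controls or had an outlier flag were dropped, and repeated spots of 7 probes were averaged. Means of the 4 groups over 42006 probes were fitted with limma 3.58.1 (R 4.3.3), p-values were adjusted by the Benjamini-Hochberg method, and the fit was tested on simulated data. No lower limit on signal was set. The number of arrays limits the precision. Replicate numbers pair the RM arrays: deviations from the group means correlated at 0.388, 0.562 and 0.592 between arrays of the same number. Alternatives were other background corrections and normalizations, Cy3 alone, the series matrix, median pixels, a filter on dim probes, outlier spots kept, the t-statistics of the study's methods, other thresholds, the replicate block, extraction time and each RM array left out.

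Symbols came from the study's list of 128 probes. The members and lists were chosen with earlier results of these data known. By a stated rule the text names the members, *Zscan4*, the 5 nearest named probes of each member, genes of both pathway lists and 5 other metabolic genes of the study's list. Of the neuroectoderm list, 3 of 6 genes had a named probe and 1 passed the RM threshold.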

Additional observations from a re-analysis of the deposited data

How the results depend on the processing

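Zscan4+ was above Zscan4- for both genes in every setting run, in RM and in RA. With t-statistics on the error variance that the methods describe, the RM log2 changes, 4.35 for *Arg2* and 2.29 for *Mgll*, no longer passed. By them 0 probes were called, against 101 at an unadjusted p under 0.05 and at least 3-fold. The study reports genes enriched in RM-Zscan4+, so this setting did not reproduce its analysis. At a false discovery rate of 0.05 the *Mgll* change of 2.29 did not pass either. The replicate block gave an adjusted p of 0.0444 for *Arg2* and 0.1005 for *Mgll* from limma and 105 probes called, and changed neither gene's call. With 1 RM array left out, the *Arg2* change ran from 4.05 to 4.51, the *Mgll* change from 1.96 to 2.65, and the count of probes from 52, without RM-Zscan4+ replicate 1, to 93. From median pixels the RA difference was 3.14 for *Arg2* and 2.19 for *Mgll*, and the RA minus RM level in Zscan4- cells was 0.97 for *Arg2* and 0.46 for *Mgll*; for *Mgll* it was 0.14 by Cy3 alone, against -0.06. The excess of the RA difference over the RM change turned to -0.14 for *Arg2* and was 0.43 for *Mgll* from median pixels, against 0.77 to 1.20 and 1.32 to 1.58 in the other settings. At 2-fold, 497 probes were higher in RA-Zscan4+. The cause of these shifts was not tested. Raising signals to the 95th percentile of the negative controls, an alternative chosen after seeing the data, could not move the log2 change of either gene. Every signal of both genes already lay above that percentile in both dyes, so this setting says nothing about the low Zscan4- signals. Signal close to the negative controls limits the Zscan4- values of both genes.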
